A study of Mus musculus with 6 samples.

Results

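The genes described here are 10 known for trophoblast, the outer lineage of the early embryo that forms the placenta: the transcription factor genes Cdx2, Elf5, Tfap2c, Gata2, Gata3, Tead4 and Hand1, and the keratin genes Krt7, Krt8 and Krt18. They were taken as every probe set annotated to exactly 1 of these symbols, which gave 19 of the 34945 probe sets with a single gene symbol, for 10 of 18193 genes. The samples were mouse embryonic stem cells, derivatives of the line E14TG2a on the 129P2 background, kept for 2 days in N2B27, a serum-free medium that favours neural fate. Each GemKD culture received doxycycline (Dox, 500 ng as the labels give it) to induce an shRNAmir, a short hairpin RNA built like a microRNA precursor, that targets Gmnn, which encodes the replication licensing inhibitor Geminin. Each uninduced culture was the same line without Dox, so both groups carried the hairpin construct. There were 3 independent experiments with 1 GemKD and 1 uninduced array each. Experiments 1 and 3 used shRNAmir 11, experiment 2 used shRNAmir 9 in another line, and no array with Dox but without a hairpin was used here, so effects of Dox and of the knockdown cannot be told apart.

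As background, trophectoderm arises in the blastocyst when Tead4, a DNA-binding partner of the Hippo effector Yap1, is active in outer cells and Cdx2 and Gata3 are switched on. Elf5, Tfap2c and Eomes then sustain trophoblast stem cells, Gata2 and Hand1 act in trophoblast giant cells, and Krt7, Krt8 and Krt18 build the keratin filaments of this simple epithelium. Cdx2 also has a posterior, Hand1 a mesodermal and Tfap2c a germ cell and pluripotent role, and embryonic stem cells do not readily form trophoblast.

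Gmnn, measured by 1 probe set, had signals of 983, 1669 and 1269.6 in GemKD cultures of experiments 1, 2 and 3, against 3557, 3477 and 3463 in their uninduced cultures. Every array therefore went the way of its label, at a log2 fold change of -1.44 (SE 0.17). The labelled neurectoderm was looked at by markers, which were not alike in all experiments. Sox1, an early neural factor, had 577 and 523 in the GemKD and uninduced cultures of experiment 3, against 2108 to 2443 on the 4 other arrays. The neural genes Pax6 and Cdh2 were also lower there, with 158 and 135 against 614 to 823, and 540 and 451 against 837 to 1117. Sox3 was higher there, with 1428 and 1315 against 959 to 1237. Pou5f1, a pluripotency factor, lay between 7338 and 7711 over the 6 arrays, but most of its list did not stay level. Of 10 pluripotency genes tested, both arrays of experiment 3 were below the 4 others for 7 and above them for 1. The shares over all genes were 31% and 19.7%. Nanog had 341 and 288 in experiment 3, against 1565 to 2434, and Zfp42 had 1992 and 1745, against 3827 to 4838. Both arrays of experiment 3 stood apart from the others. The SD of the log2 difference over the brighter 22518 probe sets was 0.40 to 0.43 between an array of experiment 3 and one of another experiment, against 0.16 to 0.22 among the 4 other arrays.

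Detection calls were not used here, so dimness was judged by signal. A probe set was tested if its mean over the 6 arrays was above 20.1, a limit set so that 30% of all probe sets fell below it. A panel of 29 genes restricted to organs such as liver, testis, pancreas and lens gave a second yardstick: its 38 probe sets had a median signal of 7.99 and a 90th percentile of 33.1. Of the 19 member probe sets, 12 passed the limit and 7 did not. Elf5, Gata3 and Tead4 had no probe set above it. The 2 probe sets of Elf5, an ETS factor of trophoblast stem cells, had mean signals of 12.2 and 5.34, and no array exceeded the limit in either. Gata3, a zinc finger factor of trophectoderm, had 17.2, 13.5 and 11.9 in GemKD cultures, against 23.4, 15.7 and 20.6 in uninduced cultures of experiments 1, 2 and 3. The brighter probe set of Tead4 had 11.1, 30.2 and 14.6 in GemKD cultures, against 15.5, 24.4 and 24.8 in uninduced cultures, and the dimmer one was at 1, near the floor of the scale, on 3 of 6 arrays. Cdx2 and Krt7 passed the limit with mean signals of 32.9 and 32.1, both below the 90th percentile of the panel. Tfap2c, Gata2, Hand1, Krt8 and Krt18 each had a probe set above the panel's 90th percentile. The brightest panel probe set averaged 159, however. Both probe sets of Hand1 (89.0 and 41.5) and the dimmest of Tfap2c (146) thus lay within the range of the panel. A low signal can also come from a weak probe, so it does not show that a transcript was absent.

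**Figure D1:**
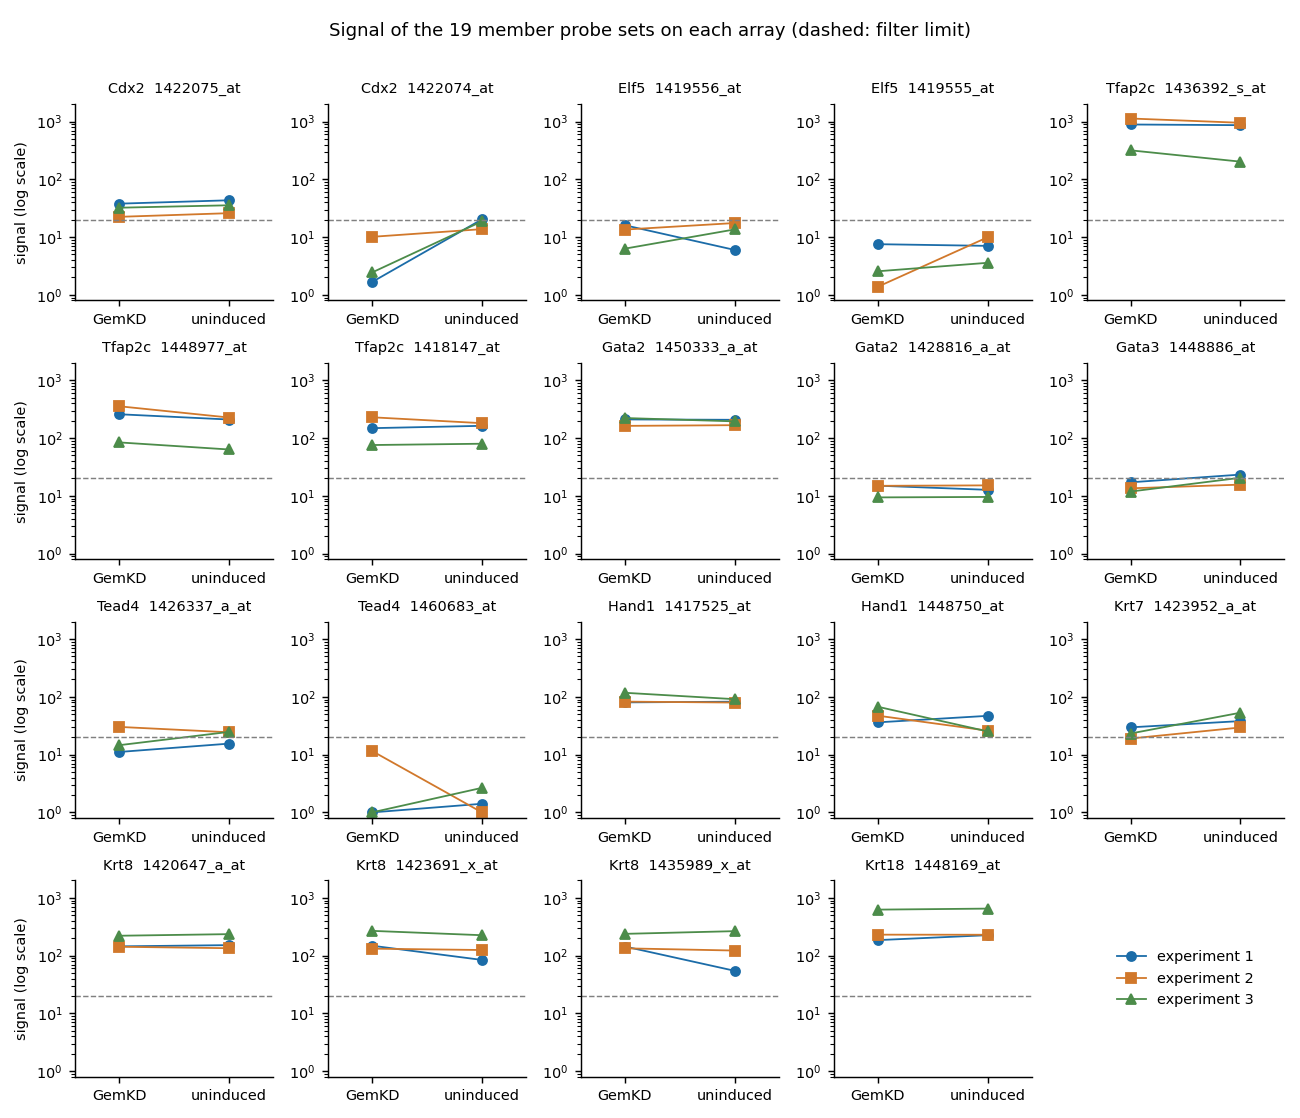
Signal of each of the 19 member probe sets (log scale) in the GemKD and uninduced culture of each experiment, with a line joining the 2 arrays of an experiment and a dashed line at the limit of 20.1. The 7 probe sets with a mean under the limit are those of Elf5, Gata3 and Tead4 and the dimmer ones of Cdx2 and Gata2. Experiment 3 lies apart in both arms for Tfap2c, Krt8 and Krt18.

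The main comparison set GemKD against uninduced cultures and asked whether these trophoblast genes differed after the knockdown. No member was called. In limma's fit over all 31526 probe sets above the limit, 0 of the 12 member probe sets passed a Benjamini-Hochberg adjusted p of 0.05, where 1 of all probe sets did (0.00317%), that of Hprt, which was higher. With the experiment as a block, limma again called 0 of 12, where 3 of all probe sets passed (0.00952%), with Hprt and 1 without a gene symbol higher (0.00634%) and Gmnn lower (0.00317%). Without a filter, 0 of the 19 member probe sets passed in either fit, against 0.00222% of all 45037 probe sets in each. The smallest adjusted p among the members was 0.99 in the blocked fit. The main fit, without the block, did not call Gmnn itself (adjusted p = 0.296 in limma). A lack of a call there therefore does not show a lack of a difference. Without experiment 3 the blocked fit again called 0 of 12, with 3 at an unadjusted p under 0.05 and a smallest adjusted p of 0.332, for Tfap2c. At an unadjusted p under 0.05 there was 1 of 12 without the block, Krt7, against 1.1% of all probe sets, and 4 of 12 with it, against 4.62%. Those 4 were 2 of the 3 probe sets of Tfap2c, 1 of the 3 of Krt8, and Krt7, which was the 1 that was lower. Probe sets of a gene share their transcript and are not independent.

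The members did not share a direction. Of the 12 log2 fold changes, on the log2 scale of signal plus 16, 8 were positive and 4 negative, between -0.48 and 0.45 with a median of 0.08, where 55% of all probe sets tested were positive and their median was 0.01. The sign was the same in all 3 experiments for 5 of 12, 3 of them higher and 2 lower, against 24% of all probe sets (13.5% higher and 10.5% lower). The 3 GemKD and 3 uninduced arrays overlapped for each of the 12, where 5.09% of all probe sets had groups that did not (2.83% with GemKD higher and 2.27% with GemKD lower). The middle 90% of all probe sets had log2 differences between -0.22 and 0.25. Above that range lay 5 of the 12, namely Tfap2c (0.30 and 0.41, at the 97.2 and 99.2 percentiles of all probe sets), the dimmer probe set of Hand1 (0.45, 99.4) and the _x_at probe sets of Krt8 (0.34 and 0.38, 98.2 and 98.9). Krt7 lay below it (-0.48, 0.466). A percentile takes no account of the spread between arrays. The pseudocount of 16 shrinks the log2 differences of dim probe sets.

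**Figure D2:**
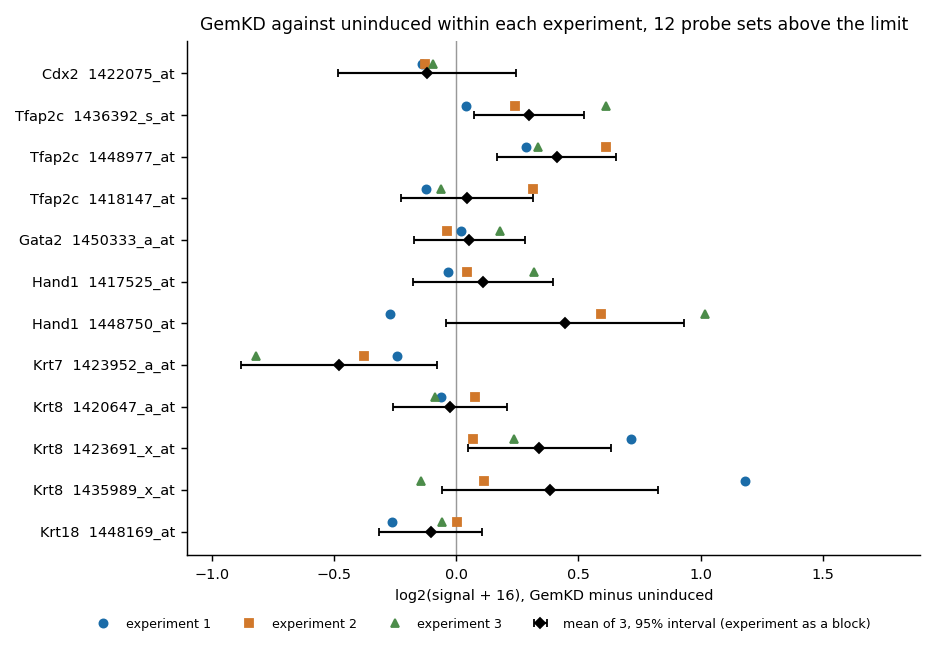
GemKD minus uninduced on the log2(signal + 16) scale for the 12 member probe sets above the limit. Coloured points are the experiments, and black diamonds with bars are the mean of 3 with the 95% interval of the fit with experiment as a block. Points lie on both sides of 0 in 7 of the 12, and the interval lies above 0 for 2 probe sets of Tfap2c and 1 of Krt8 and below 0 for Krt7, before any adjustment.

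Among the factors at the top of the trophectoderm hierarchy, Cdx2 was near background and did not pass the test. Its brighter probe set had 37.9, 22.4 and 32.3 in GemKD cultures of experiments 1, 2 and 3, against 43.4, 26.0 and 35.6 in uninduced cultures. Each GemKD array was slightly under its own control, with log2 ratios of -0.14, -0.13 and -0.10, while the groups overlapped widely. The mean log2 difference was -0.12 with a blocked 95% interval of -0.48 to 0.24. The dimmer probe set of Cdx2 had 1.67, 10.1 and 2.44 in GemKD cultures, against 20.3, 13.7 and 18.7 in uninduced cultures. These groups did not overlap, as for 6.36% of all probe sets without a filter, at a log2 difference of -0.71 (unadjusted p = 0.00504, adjusted p = 1 in limma without a filter), but the mean of 11.2 was under the limit and 5 of its 6 values lay under 20.1. Neither probe set of Cdx2 was higher in any GemKD culture. Eomes, the T-box factor that acts beside Cdx2, had 343, 259 and 243 in GemKD cultures, against 325, 304 and 261 in uninduced cultures (log2 difference -0.08, blocked adjusted p = 0.997 in limma), and overlapped between the groups.

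Tfap2c, which encodes the AP-2 gamma factor, had 3 probe sets, all of them above the limit on every array. The brightest had 889.7, 1129.6 and 318 in GemKD cultures of experiments 1, 2 and 3, against 866, 953 and 202 in uninduced cultures. Each GemKD array was above its own control, by log2 ratios of 0.04, 0.24 and 0.61, but the difference between experiments was much larger and the groups overlapped. The second had 259, 356 and 84.2 in GemKD cultures, against 209.6, 227 and 63.5 in uninduced cultures, again higher in all 3 experiments (0.28, 0.61 and 0.33). The third had 149, 229 and 75.9 in GemKD cultures, against 163, 181 and 79.9 in uninduced cultures, and was higher in experiment 2 alone. The mean log2 differences of the 3 probe sets were 0.30, 0.41 and 0.04, with blocked 95% intervals of 0.07 to 0.52, 0.17 to 0.66 and -0.23 to 0.31. In the order of their brightness, the unadjusted p-values of limma's blocked fit were 0.0143, 0.0035 and 0.732, and each adjusted p was 0.99. The brightest probe set has the suffix _s_at, which Affymetrix gives to probe sets whose probes can match transcripts of more than 1 gene. In the fit without the block, leaving out the uninduced array of experiment 3 gave -0.40, -0.11 and -0.28. Without the GemKD array of experiment 2 the brightest and dimmest were -0.06 and -0.29 there. Leaving out 1 array keeps its experiment in 1 group only, so differences between experiments enter these values. With the block and without experiment 1, 2 or 3, the brightest had 0.43, 0.32 and 0.14. The second had 0.47, 0.31 and 0.45, and the third 0.13, -0.09 and 0.10.

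Gata2, which activates placental lactogen genes in giant cells, showed a small difference. Its brighter probe set had 210.5, 163 and 223 in GemKD cultures, against 207, 167 and 195 in uninduced cultures. The values interleaved, the mean log2 difference was 0.05, and the blocked 95% interval was -0.17 to 0.28. The second probe set was under the limit, with 0 of 6 arrays above it.

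Hand1, a bHLH factor needed for giant cells, gave unequal results in its 2 probe sets. The brighter had 80.3, 82.7 and 118 in GemKD cultures, against 82.5, 79.7 and 91.2 in uninduced cultures, a log2 difference of 0.11 (blocked 95% interval -0.18 to 0.40). The log2 ratio was 0.32 in experiment 3 and within 0.05 of 0 in the other two. The dimmer had 36.2, 47.3 and 67.5 in GemKD cultures, against 46.9, 26.0 and 25.2 in uninduced cultures. It was lower in experiment 1 and higher in experiments 2 and 3, with log2 ratios of -0.27, 0.59 and 1.02, and its mean difference of 0.45 was the highest of the 12 (blocked 95% interval -0.04 to 0.93). Neither passed in limma (blocked adjusted p = 0.992 for both).

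The keratins pair as a type II with a type I protein, Krt7 and Krt8 being type II and Krt18 type I. Krt8 and Krt18 lie next to each other on mouse chromosome 15 with no protein-coding gene between them in RefSeq, and Krt7 lies on the same chromosome 23 protein-coding genes away from Krt8. The region around each start, 250 bases before to 50 after it in RefSeq GRCm38.p6, is shown because Krt8 and Krt18 varied together across the arrays while Krt7 did not. Such a window was held for 7 of the 10 members. Capitals mark matches, on either strand, to 6 motifs searched by their letters: the box bound by TBP is TATAAA, the one bound by Sp1 (GC box) is GGGCGG, the palindrome of AP-2 factors is GCCNNNGGC, the site of GATA factors is AGATAA, that of TEAD factors is GGAATG and that of AP-1 is TGANTCA. The windows are at chr15:102004293-102004592 on the minus strand for Krt8, chr15:102027966-102028265 on the plus strand for Krt18 and chr15:101412153-101412452 on the plus strand for Krt7, each written 5′ to 3′ along its gene.
Krt8: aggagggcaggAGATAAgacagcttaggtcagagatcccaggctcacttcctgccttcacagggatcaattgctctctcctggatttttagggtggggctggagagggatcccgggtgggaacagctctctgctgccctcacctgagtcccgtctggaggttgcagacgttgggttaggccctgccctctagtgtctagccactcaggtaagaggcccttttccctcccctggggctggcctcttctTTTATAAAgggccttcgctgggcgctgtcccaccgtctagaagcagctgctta
Krt18: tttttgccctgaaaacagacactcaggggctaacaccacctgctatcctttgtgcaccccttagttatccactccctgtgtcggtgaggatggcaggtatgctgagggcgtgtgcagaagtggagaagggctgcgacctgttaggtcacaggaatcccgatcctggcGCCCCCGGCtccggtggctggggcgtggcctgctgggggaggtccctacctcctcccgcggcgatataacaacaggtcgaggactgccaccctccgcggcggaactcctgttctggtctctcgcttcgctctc
Krt7: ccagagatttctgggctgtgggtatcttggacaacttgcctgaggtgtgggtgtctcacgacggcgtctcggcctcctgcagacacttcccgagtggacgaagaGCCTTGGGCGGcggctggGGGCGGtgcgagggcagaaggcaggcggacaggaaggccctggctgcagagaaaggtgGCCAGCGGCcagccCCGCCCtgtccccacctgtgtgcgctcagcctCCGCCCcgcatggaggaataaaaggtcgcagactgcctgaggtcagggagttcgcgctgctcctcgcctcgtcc
The Krt8 window held TATAAA, found in 13.6% of all 32851 windows of this length, and AGATAA, found in 11.2%. Its TATAAA began 1 base before the annotated start, and its overlapping reverse-strand match 3 bases before. The Krt18 window held 1 match to GCCNNNGGC, found in 16.6% of windows, beginning 83 bases before the start. The Krt7 window held 4 matches to GGGCGG, found in 35.7% of windows, and 2 to GCCNNNGGC, 1 of which overlaps a GC box. A match is a description of the letters in these windows. GGAATG and TGANTCA, found in 14.7% and 7.81% of windows, were in none of these 3.

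Krt7, often used to mark trophoblast, was lower in each GemKD culture than in its own control. Its signals were 29.7, 19 and 23.2 in GemKD cultures of experiments 1, 2 and 3, against 38.1, 29.5 and 53.2 in uninduced cultures. The groups overlapped by 1 GemKD array, that of experiment 1, which was just above the uninduced array of experiment 2. The log2 ratios were -0.24, -0.38 and -0.82, with a mean of -0.48 (SE 0.20; unadjusted p = 0.0444 and adjusted p = 0.999993 in limma; blocked 95% interval -0.88 to -0.08, blocked adjusted p = 0.992). The 10 genes of the organ panel that passed the limit had log2 differences between -0.51 and 0.41, a range that holds the Krt7 value.

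Krt8 gave no agreed difference among its 3 probe sets. The first, which has the suffix _a_at for probes shared among transcripts of 1 gene, had 145, 142 and 221 in GemKD cultures, against 152, 134 and 235.5 in uninduced cultures. Its log2 difference was -0.03, with a blocked 95% interval of -0.26 to 0.21. The 2 others carry the suffix _x_at, given where some probes may also bind other transcripts. They had 149, 132 and 268 and 144, 134 and 238 in GemKD cultures, against 84.3, 125 and 226 and 54.5, 122 and 265 in uninduced cultures. Their mean log2 differences of 0.34 and 0.38 came mostly from experiment 1, with log2 ratios of 0.71 and 1.18 there, against 0.07 and 0.11 in experiment 2 and 0.24 and -0.15 in experiment 3. The low values of the uninduced array of experiment 1 were not seen in the first probe set. Without that array the differences of the 2 probe sets were 0.05 and -0.11 in the fit without the block. With the block and without experiment 1 they were 0.15 and -0.02.

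Krt18 had 185.5, 231 and 626 in GemKD cultures, against 226, 229.7 and 652 in uninduced cultures. GemKD arrays were a little lower in experiments 1 and 3 and level in experiment 2, with log2 ratios of -0.26, 0.01 and -0.06. The mean was -0.11 with a blocked 95% interval of -0.32 to 0.11 (blocked adjusted p = 0.992 in limma). The blocked intervals of the Krt8 _a_at probe set and of Krt18 thus end at log2 differences of 0.21 and 0.11 on the higher side, and reach -0.26 and -0.32 on the lower side. Those of the 2 _x_at probe sets of Krt8 were 0.05 to 0.63 and -0.06 to 0.82, so the probe sets together do not bound Krt8 at 0.21.

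A test of whether the 2 hairpins gave unequal differences used an interaction, shRNAmir 9 minus shRNAmir 11, with the experiment as a block. In limma 0 of the 12 member probe sets passed an adjusted p of 0.05, and 0 of 12 had an unadjusted p under 0.05, against 0.336% and 4.32% of all probe sets. The differences ran from -0.41 for both _x_at probe sets of Krt8 (-0.406 and -0.404) to 0.41 for the dimmest tested probe set of Tfap2c (95% interval -0.16 to 0.97). Gmnn itself differed, with a log2 difference of 0.59 (adjusted p = 0.0415 in limma), its signal being lowered less in experiment 2. Since shRNAmir 9 was used in that experiment alone, the hairpin, the line and the experiment cannot be told apart. The fit has 1 residual degree of freedom. Its count over all probe sets was 0 without the filter and 0 without the trend, so Gmnn was not called there, and 161 at a stricter filter.

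The larger differences among the members lay between experiments, in both arms alike. They are described without a test, because experiment 3 was seen to stand apart on these arrays. Both arrays of experiment 3 were above the 4 others for 5 of the 12 member probe sets, the 3 of Krt8, that of Krt18 and the brighter of Hand1, and below them for 3, all of Tfap2c. Over all probe sets tested the shares were 20.8% above and 25.7% below. Krt18 averaged 639 in experiment 3, against 186 to 231 over the arrays of experiments 1 and 2, a ratio of mean signals of 2.93. Krt8 had ratios of 1.59, 2.02 and 2.22 by its 3 probe sets. Tfap2c went the other way, with a mean of 260.02 in experiment 3 against 866 to 1129.6 in the 4 other arrays, a ratio of 0.271, and ratios of 0.281 and 0.431 in its other probe sets. On the log2 scale the differences were 1.49 for Krt18, 0.62 to 1.11 for Krt8 and -1.85 to -1.05 for Tfap2c. Krt7 (0.23), Gata2 (0.15), Cdx2 (0.07) and Hand1 (0.30 and 0.11) lay between the 5th and 95th percentiles of all probe sets, which were -0.60 and 0.51. In a bulk sample fewer cells of a type and less RNA per cell cannot be told apart.

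**Figure D3:**
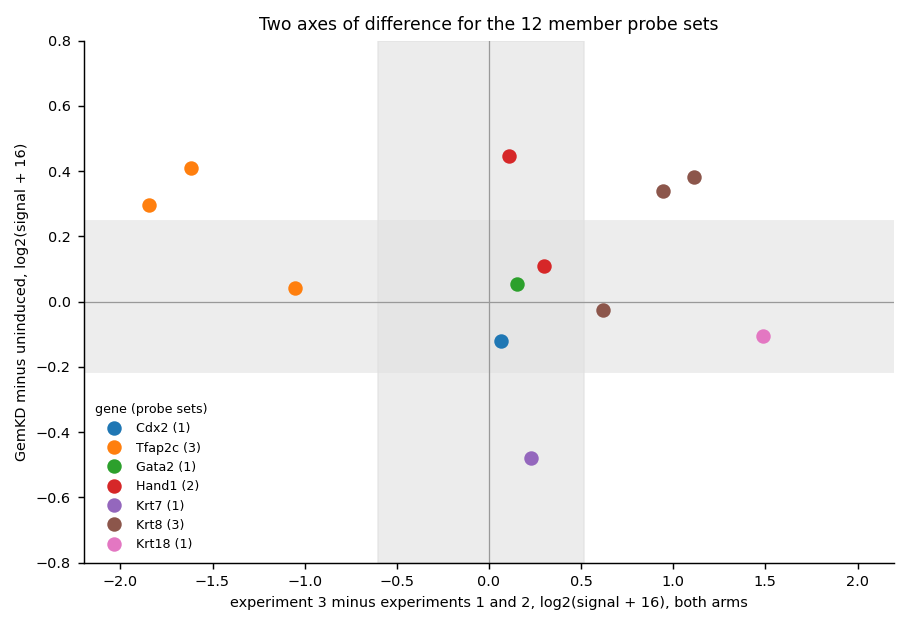
Each of the 12 member probe sets by its difference between experiment 3 and experiments 1 and 2 (horizontal) and between GemKD and uninduced (vertical), both as log2(signal + 16). Grey bands hold the 5th to 95th percentile of all 31526 probe sets on each axis. On the horizontal axis 4 probe sets, Krt18 and the 3 of Krt8, lie above the band and the 3 of Tfap2c below it. On the vertical axis 5 lie above the band, 2 of Tfap2c, 2 of Krt8 and 1 of Hand1, and Krt7 lies below it.

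Simple epithelial genes were mostly higher in experiment 3. Of 18 tested, both arrays of experiment 3 were above the 4 others for 12 and below them for 2, against 19.7% and 31% of all genes. For the 18, the median difference of experiment 3 from experiments 1 and 2 was 0.47 on the log2 scale, against -0.04 over all genes. The tight junction gene Cldn7 had 865 in the GemKD and 980.5 in the uninduced culture of experiment 3, against 136 to 238 on the 4 other arrays. The epithelial splicing factor gene Esrp1 had 1784 and 1819.9 there, against 525 to 811. Cdh1, the epithelial cadherin also present in embryonic stem cells, had 7610.3 and 6973, against 5209 to 5997. Dsp, which encodes desmoplakin, went the other way with 197 and 165 in experiment 3, against 264 to 317, as did the tight junction gene Tjp1 with 2266 and 2279, against 2609 to 2709. Jup, the plakoglobin gene, had 442 and 397 there, within the 336.5 to 573 of the 4 other arrays. The part of these genes in the keratin difference was not tested. The trophoblast list had a median of -0.19 on this axis.

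The genes with the most similar pattern over the 6 arrays were sought by Pearson's r among 14185 genes. Krt8 and Krt18, each by the brightest probe set, had an r of 0.97 with each other, and Krt8 ranked 249 of 14184 genes by closeness to Krt18. Those closest to Krt18 were Vcl, which encodes vinculin, with Crcp and Shb (r above 0.997 for each). Those closest to Krt8 were Lsm1, Mrpl12 and Elovl4. Tfap2c was closest to Primpol, Ascc1 and Plekhh1, and had an r of -0.96 with Krt18 and -0.98 with Krt8. The 6 arrays share experiments in pairs, and those of experiment 3 stand apart, so few of the points are independent. Over them, 1109 genes had an r above 0.95 with Tfap2c, 538 with Krt18 and 374 with Krt8. The other members had fewer such genes, 13 for Cdx2, 18 for Gata2, 16 for Krt7 and 114 for Hand1. Cdx2 was closest to Pax9, Ceacam1 and Cda, Gata2 to Gpr132, Speer8-ps1 and Adcy4, Hand1 to Rnpc3, Bcl10 and Psmc4, and Krt7 to Abcb11, Apoh and Cnnm3. The r of Krt7 was 0.43 with Krt8 and 0.34 with Krt18.

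Other trophoblast genes were then counted from a list of 30, each by its brightest probe set. Of these, 21 were tested, 3 were under the limit (Dlx3, Tpbpa and Ctsq) and 6 were not used here for lack of a single-symbol probe set. The 6 were Gcm1, Prl3d1, Prl3b1, Prl2c2, Syna and Synb, so the counts below do not cover them. In limma 0 of 21 passed without and 0 with the block, against 1 and 5 of 14185 genes (0.00705% and 0.0352%), and 0 and 1 had an unadjusted p under 0.05, against 0.867% and 4.76% of all genes. Of the 21, 14 had a positive and 7 a negative difference, where 51.2% of all genes had a positive one. All 3 experiments gave a positive ratio for 5 and a negative one for 2, against 12.2% and 11.7% of all genes. The median log2 difference was 0.05, against 0.002 over all genes. The mean log2 level over the 24 genes with a probe set lay between 7.32 and 7.39 in GemKD and between 7.30 and 7.35 in uninduced cultures, so the groups overlapped. By their brightest probe sets, the named members of the list were small in difference. Wnt7b, a ligand of the placental chorion, had a log2 difference of -0.19, while its dimmer probe set had 0.10. Pcsk6, a proprotein convertase, had 0.18, with signals of 198, 196 and 179 in GemKD cultures, against 180.0, 178 and 144 in uninduced cultures. Rhox6, a homeobox gene of the placenta, had 0.18, with 108, 116 and 101 in GemKD cultures, against 94.4, 108.5 and 80.2 in uninduced cultures. Both were higher in all 3 experiments, yet their groups overlapped. Esrrb, shared by trophoblast stem cells and naive pluripotent cells, was the 1 gene of the 21 whose groups did not overlap, with 537, 483 and 486.5 in GemKD cultures, against 423, 467 and 454 in uninduced cultures (log2 difference 0.16, blocked adjusted p = 0.997 in limma). Across all genes 4.33% had groups that did not overlap. The brightest probe set of Esrrb has the suffix _x_at, and the second brightest of its 3 had a log2 difference of 0.45. Tpbpa, a marker of the spongiotrophoblast, had 6.83, 11.0 and 16.2 in GemKD cultures, against 7.11, 8.99 and 15.2 in uninduced cultures, all under the limit.

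The relatives of the members and the partners of Tead4 were described the same way. Of 14 relatives, 8 were tested and 0 passed in limma in either fit, against 0.00705% and 0.0352% of all genes. At an unadjusted p under 0.05 there were 0 and 1, against 0.867% and 4.76% of all genes. The median was 0.08. Tead1 and Tead2, which encode DNA-binding partners of Yap1 like Tead4, were bright on every array, at 893 to 2023 and 1277 to 1487. Tead1 had a log2 difference of 0.17 and Tead2 of 0.07. Tfap2a, the AP-2 alpha gene, had 0.10, Gata1 0.23, Gata6 0.10 and Gata4 0.02. Cdx1 and Cdx4 were under the limit. Of 13 Hippo genes tested, 6 were higher and 7 lower, where 51.2% of all genes were higher, and 0 passed in limma in either fit. At an unadjusted p under 0.05 there were 0 and 2, against 0.867% and 4.76% of all genes. The median was -0.03. Lats2, a kinase that restrains Yap1, had the largest difference, with 276, 275.5 and 245 in GemKD cultures, against 263, 205 and 174 in uninduced cultures (log2 difference 0.31, blocked adjusted p = 0.891). Yap1 itself had -0.03 and its target Ccn2 0.05. Ankrd1, another Yap1 target, had -0.13 at signals of 27.4 to 47.7.

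Keratins outside the members were counted next. Their list also holds Krt19, a keratin of simple epithelia, so its counts do not contrast simple with other keratins. Of 17, 9 were tested and 0 passed in limma in either fit, against 0.00705% and 0.0352% of all genes. At an unadjusted p under 0.05 there were 3 of 9 in each fit, against 0.867% and 4.76% of all genes. Groups did not overlap for Krt1 and Krt76, which were higher, and Krt6a, which was lower, against the 4.33% of all genes. Krt1, a keratin of the upper epidermis, had 129, 109 and 150 in GemKD cultures, against 100.1, 86.2 and 86.2 in uninduced cultures (log2 difference 0.44, blocked adjusted p = 0.698). Krt76 had 29.9, 25.8 and 30.4 in GemKD cultures, against 16.1, 18.1 and 15.7 in uninduced cultures, with uninduced values under the limit. It passed the limit only through its GemKD arrays, so its place in the counts above carries no weight. Krt6a had 67.8, 56.8 and 58.3 in GemKD cultures, against 92.5, 76.3 and 86.1 in uninduced cultures (log2 difference -0.39), and a dimmer probe set of Krt6a had 0.12. Krt19, the remaining keratin of simple epithelia that was tested, had 43.4, 65.1 and 53.4 in GemKD cultures, against 49.1, 64.2 and 79.1 in uninduced cultures (-0.19). Krt20 was under the limit.

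Epithelial and other lineage genes gave no further call. Of 18 simple epithelial genes 7 were higher and 11 lower, where 51.2% of all genes were higher, with a median of -0.01. In limma 0 passed in either fit, against 0.00705% and 0.0352% of all genes. At an unadjusted p under 0.05 there were 1 and 4 of 18, against 0.867% and 4.76% of all genes. Jup, which encodes plakoglobin of adherens junctions and desmosomes, had 549.6, 573 and 442 in GemKD cultures, against 336.5, 392 and 397 in uninduced cultures (0.45, blocked adjusted p = 0.299). Cldn7 had -0.23, Esrp1 -0.24, Cdh1 -0.01 and Epcam -0.03. Surface ectoderm genes, which share Tfap2a and Dlx3 with the trophoblast list, had a median of -0.01 over 5 tested, led by Grhl3 at 0.24, with Krt14 at -0.06.

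**Figure D4:**
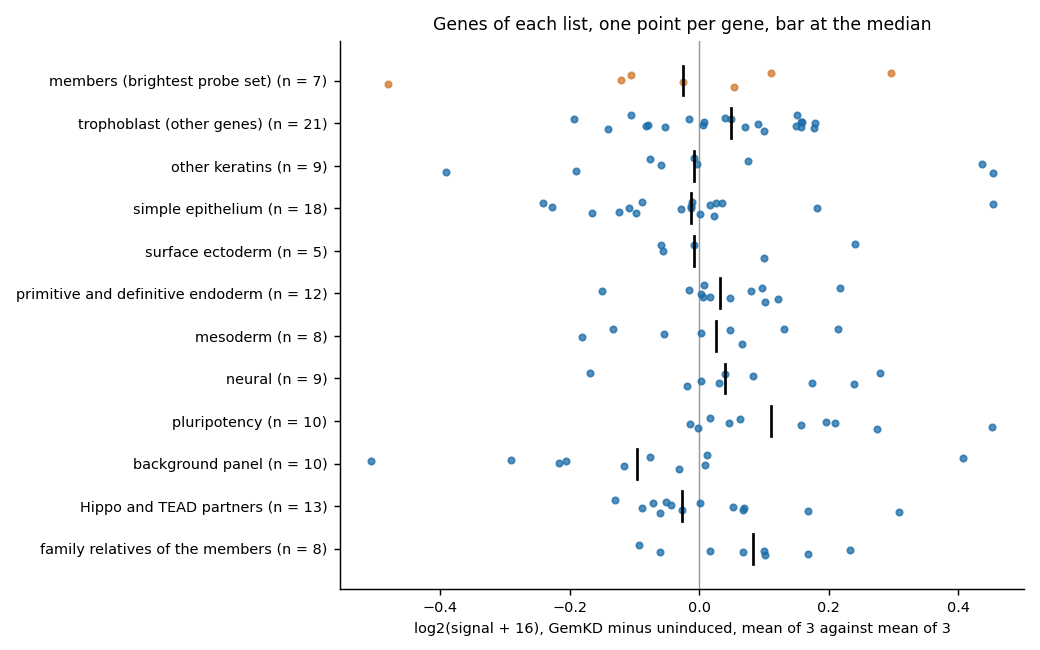
Log2 difference between the mean of 3 GemKD and the mean of 3 uninduced cultures for each tested gene of the members and of each list, with a black bar at the list median. Each gene is shown by its brightest probe set. The trophoblast list has its median at 0.05 with all 21 genes between -0.19 and 0.18, and the 10 tested genes of the organ panel run from -0.51 to 0.41.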

How the data were processed

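Biotin-labelled total RNA of 6 cultures was measured on the Affymetrix 430 2.0 mouse array, as the labels state. The deposited table holds a linear intensity for each of 45037 probe sets on each array. How the authors summarised and normalized the probes is not given in the sources used here. Array medians were 59.3 to 60.9, so no further scaling was applied. The number of arrays limits the precision.

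Genes were named from the platform annotation. Probe sets with a mean signal above the 30th percentile (20.1; 31526 probe sets) were tested as log2(signal + 16) with limma 3.58.1 in R 4.3.3 (lmFit, then eBayes with a trend on mean level, two-sided tests, Benjamini-Hochberg adjustment over all probe sets, threshold 0.05), without a block as the main comparison. The experiment as a block was the alternative. The experiment number in the labels pairs each GemKD array with its own control: deviations from the group means correlated at 0.431, 0.380 and 0.656 within experiments 1, 2 and 3, though also at 0.260 and 0.386 between experiments 1 and 2. Members under the limit take their values from a fit without a filter. Lists were read from a fit of 14185 genes, each by its brightest probe set.

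Members and lists were chosen with earlier results of these data known. The genes named were the members, Gmnn, the 3 largest differences of a list, 14 genes set in advance and the 3 most similar genes of each member; the list genes Yap1, Ccn2, Tpbpa, Dlx3, Ctsq, Krt20 and Cdx4, and Hprt, were named after their values were seen. The 6 trophoblast genes of the list without a single-symbol probe set were named for that lack. Sequences are from RefSeq GRCm38.p6, and all 10 member symbols matched its gene table. The fits were tested on simulated data, where the main fit missed most of the smaller changes, and the blocked and hairpin fits made more false calls than the threshold allows. Other settings tried were quantile normalization, a term for the hairpin, no filter or one at the 50th percentile, 1 probe set or the mean of all probe sets per gene, a pseudocount of 1 or 64, no trend, and leaving out each array or experiment.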

Additional observations from a re-analysis of the deposited data

How the results depend on the processing

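No member probe set was called under any of the alternatives run. In limma the smallest adjusted p of a member was 0.332, for Tfap2c, with the experiment as a block and without experiment 3, and 0.357, for Hand1, without experiment 1. The block changed no member's call. Over all probe sets the count was 3 with the experiment block and 0 without the intensity trend, against 1. Leaving out arrays or experiments gave 0 to 17 calls, the count being 0 or 1 without any 1 array and 17, 12 and 13 in the blocked fits without experiment 1, 2 and 3. The count for the hairpin comparison was 106, with 0 under no filter, 161 with a filter at the 50th percentile and 0 without the trend. The cause was not tested. The count of members with 1 sign in all 3 experiments was 5 under quantile normalization and with a pseudocount of 1 or 64.

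Signs of the members' differences turned in 22 of 215 alternatives, 21 of them with arrays left out. Over those the log2 differences ran from -0.25 to 0.0154 for Cdx2, -0.40 to 0.83, -0.11 to 0.97 and -0.29 to 0.42 for the 3 probe sets of Tfap2c, -0.0284 to 0.18 for Gata2, -0.0416 to 0.20 for the brighter one of Hand1, -0.22 to 0.20 for Krt8 by its _a_at and -0.11 to 0.89 by an _x_at probe set, and -0.61 to 0.38 for Krt18. Krt7 (-0.62 to -0.31), the dimmer one of Hand1 (0.16 to 0.80) and the other _x_at probe set of Krt8 (0.05 to 0.68) kept their sign. These ranges pool fits without the block that lacked 1 array with blocked fits that lacked an experiment. Leaving out 1 array keeps its experiment in 1 group only, so differences between experiments enter the ranges. In the blocked fits without experiment 1, 2 or 3, Krt18 had -0.03, -0.16 and -0.13. The brightest probe set of Tfap2c had 0.43, 0.32 and 0.14. Among the values whose sign turned, the fits with the replicate block gave -0.0922 for the dimmest probe set of Tfap2c without experiment 2, -0.0086 for Gata2 and 0.0056 for the _a_at probe set of Krt8 without experiment 3, and -0.0163 for an _x_at probe set of Krt8 without experiment 1. The mean of all Krt8 probe sets gave 0.23, against -0.03. The median 95% half-width of a member's log2 difference was 0.69 without and 0.28 with the block, which bounds what 3 experiments can show, and dim members carry little information.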

Other observations

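Genes of other lineages that use some of these factors were counted with the same fits of limma. Over all genes 51.2% were higher. Without and with the block 0.00705% and 0.0352% of all genes passed, and 0.867% and 4.76% had an unadjusted p under 0.05. Of 12 endoderm genes tested 10 were higher and 2 lower, with a median log2 difference of 0.03, and 0 passed in either fit, nor did any have an unadjusted p under 0.05. Gata6 had signals of 72.1, 64.2 and 56.3 in GemKD cultures, against 64.9, 53.5 and 57.7 in uninduced cultures, and Sox17 had 69.8, 64.2 and 102 in GemKD cultures, against 116, 64.2 and 88.7 in uninduced cultures. Of 8 mesoderm genes tested 5 were higher and 3 lower, with a median of 0.03, and 0 passed in either fit, nor did any have an unadjusted p under 0.05. Mesp1 had 391, 399.6 and 287 in GemKD cultures, against 259, 341 and 318 in uninduced cultures. The mesodermal relative of Hand1, Hand2, was under the limit, named here after its values were seen.

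Krt80, a keratin under the limit that was also named after its values were seen, had 6.69, 10.6 and 10.6 in GemKD cultures, against 1.52, 4.30 and 4.53 in uninduced cultures, and its groups did not overlap, as for 6.36% of all probe sets without a filter. The values lie within the range of the organ panel, whose 90th percentile was 33.1.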
